A study of Homo sapiens with 2 samples.

Results

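The genes described here encode collagens, laminins, other extracellular matrix glycoproteins and proteoglycans, and the enzymes that modify and cross-link collagen. The list held 44 gene symbols, all found among the 63677 Ensembl gene IDs of the count tables. It was measured in MDA-MB-231, an established human breast cancer cell line with mesenchymal features. The control group was 1 library of these cells, with its own treatment not given in the sources used here. A second library, the CCE group, was 1 library of the same line after treatment with Carpesium cernuum extract (CCE), a plant extract, at 1 µg/mL for 24 h. Both groups share the cell line and carry no labelled transgene or other agent. The comparison asks which of these transcripts stood at another level after treatment. Neither group had a replicate and no test was possible, so ratios describe these libraries and not the spread between cultures.

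Collagens are secreted as chains wound into a helix, and laminins as heterotrimers of an alpha, a beta and a gamma chain. Laminins, collagen IV, nidogens and heparan sulfate proteoglycans form the basement membrane, the sheet on which epithelial cells rest. Fibrillar collagens form the interstitial matrix. In carcinomas much of the interstitial matrix is known to come from fibroblasts, while tumour cells themselves make laminins and part of the basement membrane. Prolyl and lysyl hydroxylases act on collagen chains in the endoplasmic reticulum, and lysyl oxidases cross-link the secreted fibres.

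Counts assigned to genes numbered 5633569 for the control and 34884501 for CCE, a library 6.36 times as deep. Levels are given as CPM, counts per 1000000 of library size after TMM scaling, so that 1 count was worth 0.180 CPM in control cells and 0.0283 CPM in CCE-treated cells. Genes with a mean over both libraries of 1 CPM or more were taken as measured, which 14424 gene IDs met, 11637 of them protein-coding. The log2 ratio is CCE over control, with an exact 95% counting interval (Clopper-Pearson) that covers counting error only. A gene was called lower or higher at 2-fold or 1.5-fold when its ratio passed that fold and its interval excluded equal levels. The labelled cell type was checked by marker genes: VIM was at 3739 CPM in control cells and 1801 in CCE-treated cells. Of the receptor genes checked, ESR1 had 0 counts in both libraries and PGR had 0 and 6. ERBB2, the other receptor gene checked, was measured at 55.4 CPM in control cells and 51.8 in CCE-treated cells. The 6 markers of the line were all measured and summed to 6152 CPM in control cells and 3535 in CCE-treated cells. VIM, AXL (-0.95) and CAV1 (-1.10) were lower, while CD44 (-0.32), EGFR (-0.20) and MET (0.04) differed less. Their part in the matrix result was not tested. Of 15 markers of fibroblasts and pericytes, endothelium and leukocytes, 14 were found in the annotation used, and 1 of these, KDR, was measured. The 6 fibroblast and pericyte markers summed to 1.44 CPM in control cells and 1.53 in CCE-treated cells, and THY1 and PDPN had 0 counts in both. Whether less of a transcript came from fewer cells that make it or from less RNA per cell cannot be told apart in bulk RNA.

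Most of the measured matrix genes stood lower in the CCE library. Of the 44 members 31 were measured, and 27 of these had a log2 ratio below 0, against 45.6% of measured protein-coding genes. At least 1.5-fold lower were 14 of the 31 (background 10.9%), and 6 of those were at least 2-fold lower (background 4.33%). These 6 were TNC, COL13A1, COL7A1, COL1A1, COL5A1 and FBN1. In the other direction 2 members were at least 1.5-fold higher (background 11.5%), P4HA1 and PLOD2, and 0 were at least 2-fold higher (background 3.26%). Both encode enzymes that hydroxylate collagen. The median log2 ratio over the 31 was -0.49, and the middle of the list ran from -0.71 to -0.22 (quartiles). Over all measured protein-coding genes the median was 0.05. Of the 31, 13 share no exon bases with another annotated gene, and COL13A1 and FBN1 were the 2 of those 13 that were at least 2-fold lower. Among the 31 members COL1A1 alone reached 1 CPM in the control library only, so that it passed the minimum through the library in which it was higher.

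**Figure D1:**
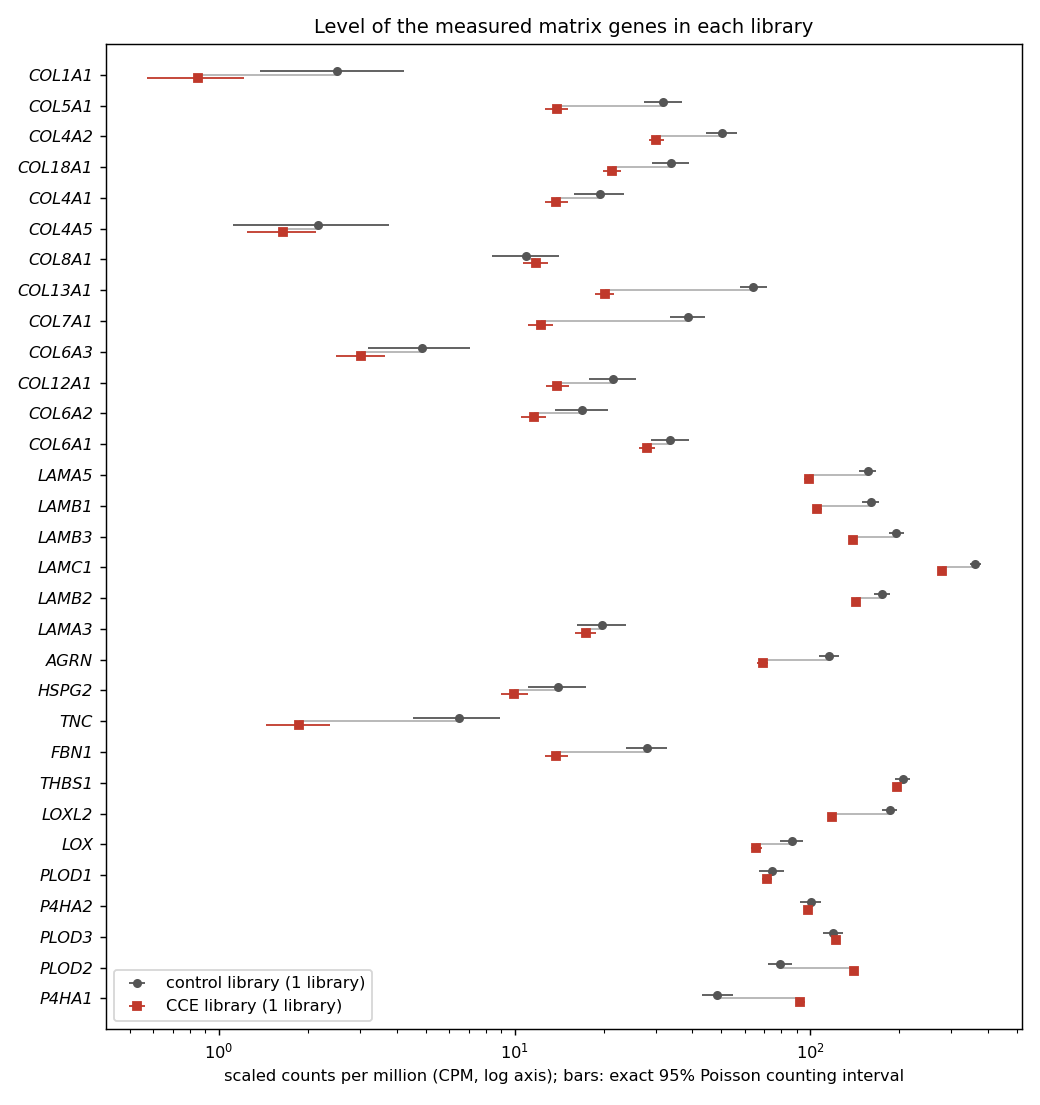
Level of the 31 measured matrix genes, with scaled CPM on a log axis and exact 95% Poisson counting intervals; circles are the control library and squares the CCE library. LAMC1 stands highest in both libraries, and the square lies left of the circle for 27 of the 31 genes.

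The fibrillar collagens were nearly silent in this line apart from 1 chain. COL3A1, the gene of collagen III, had 0 counts in both libraries, and COL1A2, the alpha 2 chain of collagen I, had 0 in control cells and 2 in CCE-treated cells. COL5A2 had 1 and 28 counts, with an interval of -0.46 to 7.49 on the log2 scale that leaves its direction undetermined. COL1A1, the alpha 1 chain of collagen I, had 14 counts in control cells and 30 in the deeper CCE library, or 2.52 and 0.85 CPM, a log2 ratio of -1.57 (-2.53 to -0.54). COL5A1, the alpha 1 chain of the collagen that starts fibrils, was the abundant member at 31.8 CPM in control cells and 13.9 in CCE-treated cells, 2.29 times lower (1.91 to 2.72). It lies on chromosome 9 from 137533649 to 137736689 (GRCh37). COL5A1 held most of the counts of this group in both libraries.

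Among the measured collagens the lowest ratios were those of COL13A1 (-1.67) and COL7A1 (-1.66), which lie outside the fibrils. Both lay within the interval of COL1A1 (-2.53 to -0.54). As a group the fibrillar collagens had the lower median, -1.38 over 2 measured genes, against -0.66 and -0.49 for the other collagen groups of the list. COL13A1, a transmembrane collagen of cell-matrix contacts, lies on chromosome 10 from 71561636 to 71724031. It had 357 counts in control cells and 715 in CCE-treated cells, 64.2 and 20.2 CPM. That is 3.17 times lower, with an interval of 2.79 to 3.61. COL7A1, which forms the anchoring fibrils below epithelia and lies on chromosome 3 from 48601506 to 48632762, had 215 and 433 counts, 38.7 and 12.3 CPM. It was 3.16 times lower (2.67 to 3.73), close to COL13A1. COL16A1, a collagen associated with fibrils, had 9 and 12 counts. At 1.62 and 0.34 CPM it fell just short of the 1 CPM mean and was left out, although its interval (-3.62 to -0.83) lay below 0.

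COL12A1, which sits on the surface of fibrils, was at 21.6 CPM in control cells and 13.9 in CCE-treated cells, a log2 ratio of -0.63 (-0.92 to -0.33). Collagen VI, a beaded-filament collagen around cells, has 3 chains in the list. COL6A1 had 33.6 and 28.1 CPM and a log2 ratio of -0.26 (-0.49 to -0.03), and COL6A2 had 16.9 and 11.6 CPM and -0.54 (-0.87 to -0.20). COL6A3 had 27 and 107 counts and a ratio of -0.68 (-1.30 to -0.02). Between COL6A2 and COL6A1, neighbouring genes on chromosome 21, the ratios differed by -0.28 with an interval of -0.69 to 0.13, so unequal ratios were not detectable at this depth. Per kilobase of the longest transcript, COL6A3 stood at 0.058 of COL6A1 in control cells and 0.043 in CCE-treated cells.

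Collagen IV is the network-forming collagen of basement membranes, built mostly from the alpha 1 and alpha 2 chains. Their genes, COL4A1 and COL4A2, lie head to head on chromosome 13 and share 1 promoter. COL4A1 runs on the minus strand from 110801310 to 110959504 and COL4A2 on the plus strand from 110958159 to 111165556 (GRCh37). The stretch between their annotated RefSeq starts is shown because both genes are known to be read from it. It is 126 bases long (GRCh38.p14, chr13:110307158-110307283), is printed on the plus strand, and reads from the start of COL4A1 towards that of COL4A2. Capitals mark a CCAAT box (CCAAT) and a GC box (GGGCGG), both searched on both strands.
COL4A1-COL4A2: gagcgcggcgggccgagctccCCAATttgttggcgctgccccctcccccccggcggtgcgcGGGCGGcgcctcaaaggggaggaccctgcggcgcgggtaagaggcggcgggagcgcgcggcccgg
The stretch holds 1 match to each motif and is 80.2% G and C. In the 250 bases before the start, 32% of 35116 RefSeq promoter windows hold CCAAT and 42.6% hold GGGCGG. A match is a run of letters and not a measured site.

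Counts are per gene and do not show which start was used. COL4A1 had 108 and 489 counts, 19.4 CPM in control cells and 13.8 in CCE-treated cells. COL4A2 had 279 and 1067 counts, 50.2 and 30.2 CPM. Their log2 ratios were -0.49 (-0.79 to -0.18) and -0.73 (-0.92 to -0.54), both below 0. The difference between them was -0.24 with an interval of -0.61 to 0.12, so the pair could not be told apart by counts. COL4A2 stood at 2.62 times the level of COL4A1 per kilobase in the control and 2.21 times in the CCE library. By the authors' FPKM neither gene was lower: COL4A1 was listed at 0.31 and 1.67, and COL4A2 at 4.09 and 4.45.

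COL18A1, whose protein carries the endostatin fragment, was at 33.8 CPM in control cells and 21.4 in CCE-treated cells, a log2 ratio of -0.66 (-0.89 to -0.42). Its exons overlap those of SLC19A1 on the opposite strand. COL8A1, a short-chain network collagen, was at 10.97 and 11.83 CPM, and its interval (-0.28 to 0.52) included 0. COL4A5 had 12 and 58 counts and an interval of -1.31 to 0.64. Of these 5 basement membrane and network collagens, 2 were at least 1.5-fold lower (background 10.9%) and 0 higher (background 11.5%). Summed over all 17 collagen members, 333 CPM in the control stood against 184 in the CCE library, a log2 ratio of -0.85 (-0.93 to -0.78).

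**Figure D2:**
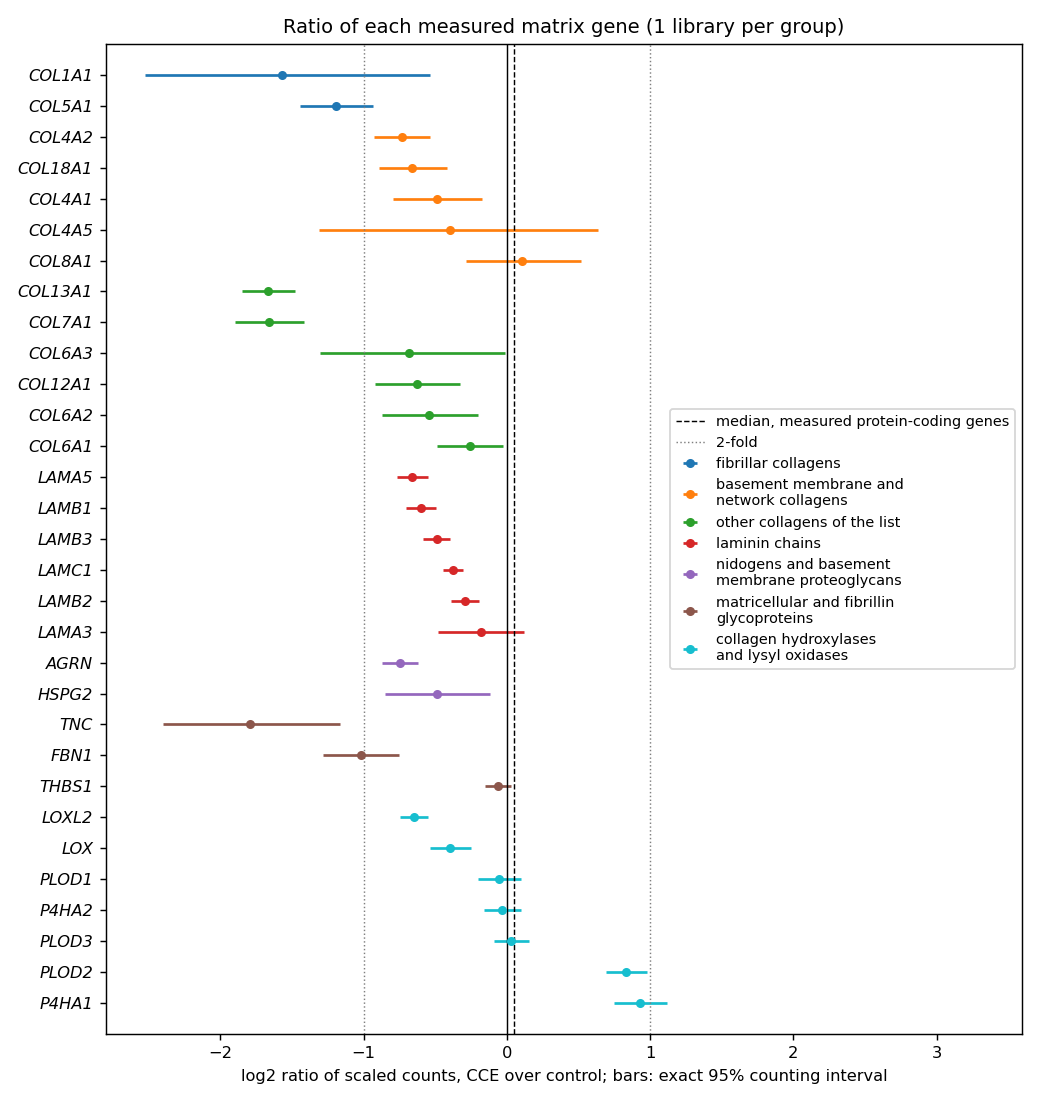
Log2 ratio (CCE over control, scaled counts) for each of the 31 measured matrix genes with its exact 95% counting interval, grouped and coloured by role; dotted lines mark 2-fold and the dashed line the median of measured protein-coding genes. COL13A1, COL7A1, COL5A1, COL1A1, TNC and FBN1 lie below -1, and P4HA1 and PLOD2 lie highest at 0.93 and 0.83.

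Laminins were the most abundant structural products of the list, and their ratios were small and of 1 sign. The 7 chains summed to 1070 CPM in control cells and 784 in CCE-treated cells. All 6 measured chains had ratios below 0 (background 45.6%), from -0.66 to -0.18, and 2 were at least 1.5-fold lower (background 10.9%). LAMC1, the gamma 1 chain common to most laminins, lies on chromosome 1 from 182992555 to 183114727. It had 2012 and 9853 counts, 362 and 279 CPM, and was 1.30 times lower (1.24 to 1.36). Its counts were the highest of the list in both libraries.

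LAMA5, the alpha 5 chain, had 870 and 3496 counts, 156 and 98.9 CPM, and was 1.58 times lower (1.47 to 1.70). LAMB1, the beta 1 chain, was at 160 and 106 CPM, a log2 ratio of -0.60 (-0.70 to -0.49). On the opposite strand the exons of LAMA5 overlap ADRM1, and those of LAMB1 overlap DLD. LAMB2, the beta 2 chain, was at 176 and 143 CPM, a ratio of -0.29 (-0.39 to -0.19). The beta chains differed from each other: LAMB2 stood at 1.30 times LAMB1 per kilobase in the control and 1.60 times in the CCE library, a difference in log2 ratio of 0.31 (0.16 to 0.45). The alpha 4 chain LAMA4 had 1 and 11 counts and was not measured.

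LAMA3 and LAMB3 encode the alpha and beta chains of the laminin of epithelial hemidesmosomes. LAMB3 had 1088 and 4927 counts, 196 and 139 CPM, a log2 ratio of -0.49 (-0.58 to -0.39). LAMA3 had 110 and 616 counts, 19.8 and 17.4 CPM, and its interval (-0.48 to 0.12) included 0. The difference between the LAMB3 and LAMA3 ratios was -0.31 with an interval of -0.63 to 0.005, so unequal ratios were not detectable at this depth. Per kilobase of the longest transcript LAMB3 stood at 24.5 times LAMA3 in the control and 19.8 times in the CCE library. LAMA3 is known to have a much shorter form than the transcript used for that scale.

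Among the linkers of the basement membrane, AGRN, the heparan sulfate proteoglycan agrin, had 643 and 2440 counts. At 116 and 69.0 CPM it was 1.68 times lower (1.53 to 1.83). HSPG2, which encodes perlecan, was at 14.0 and 9.99 CPM, a log2 ratio of -0.49 (-0.85 to -0.12). The exons of HSPG2 overlap LDLRAD2 on the opposite strand. NID1, the nidogen that joins laminin to collagen IV, had 0 counts in control cells and 1 in CCE-treated cells, and NID2 had 3 and 41. With so few control counts the interval of NID2 reached from -0.54 to 3.44.

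TNC, which encodes the matricellular protein tenascin C, had the lowest ratio of the measured members. It lies on chromosome 9 from 117781854 to 117880486 and had 36 and 66 counts, 6.47 and 1.87 CPM, 3.47 times lower (2.24 to 5.28). FBN1, the gene of the microfibril protein fibrillin 1, had 156 and 489 counts, 28.1 and 13.8 CPM, a log2 ratio of -1.02 (-1.28 to -0.75). With total counts in place of TMM scaling its ratio was -0.98 and it no longer passed 2-fold. THBS1, which encodes thrombospondin 1, was abundant and nearly level, at 206 and 197 CPM with a ratio of -0.06 (-0.15 to 0.03), and its exons overlap FSIP1 and THBS1-AS1. FBN2 had 2 and 4 counts, and SPARC, a collagen-binding protein of mesenchymal cells, 5 and 26. The interstitial proteoglycans were absent or close to it: BGN had 0 and 0 counts, DCN 0 and 2, LUM 1 and 6, and VCAN 1 and 8. Where a library had 0 counts, the level could still have reached 0.540 CPM in control cells and 0.0849 CPM in CCE-treated cells (3 counts). The 13 members that were not measured were at most 1.62 CPM in either library, and 5 of them had 0 counts in the control.

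The enzymes that modify collagen were level in sum. Their 7 genes summed to 695 CPM in control cells and 710 in CCE-treated cells, a log2 ratio of 0.03 (-0.02 to 0.08). All 7 were measured, 1 was at least 1.5-fold lower (background 10.9%) and 2 were at least 1.5-fold higher (background 11.5%). P4HA1 encodes a catalytic subunit of prolyl 4-hydroxylase, whose product stabilises the collagen helix. It lies on chromosome 10 from 74766975 to 74856732 and had 270 and 3272 counts, 48.6 and 92.6 CPM, 1.91-fold higher (1.68 to 2.17). Its paralog P4HA2 was level at 101 and 98.2 CPM, a ratio of -0.03 (-0.16 to 0.10). P4HA2 thus went from 1.29 times P4HA1 per kilobase in the control to 0.663 times in the CCE library, a difference in log2 ratio of -0.96 (-1.19 to -0.74).

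The lysyl hydroxylases split in the same way. PLOD2, which hydroxylates the telopeptide lysines that become cross-links, lies on chromosome 3 from 145752926 to 145881512. It had 441 and 4991 counts, 79.3 and 141 CPM, 1.78-fold higher (1.62 to 1.97). PLOD1, which acts on lysines of the helix, was at 74.1 and 71.4 CPM, a log2 ratio of -0.05 (-0.20 to 0.10), and PLOD3 at 120 and 122 CPM, 0.03 (-0.09 to 0.15). Per kilobase PLOD2 was at 0.543 of PLOD1 in control cells and 1.003 in CCE-treated cells. The lysyl oxidases that act after secretion were lower: LOXL2 had 186 and 119 CPM, a ratio of -0.65 (-0.74 to -0.55), and LOX 86.7 and 65.8 CPM, -0.40 (-0.54 to -0.25). LOXL2 ranked first of the list per kilobase in the control at 49.9 CPM per kilobase and at 31.9 in CCE-treated cells, where PLOD3 ranked first at 43.4.

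P4HA1, PLOD2, P4HA2 and LOX are textbook targets of the hypoxia-inducible factors, which bind a core of ACGTG or GCGTG. Only the ACGTG form was searched. The 250 bases before the RefSeq start of P4HA1 and PLOD2 and of their level paralogs are shown to set the letters beside the ratios, with ACGTG or its reverse complement in capitals (GRCh38.p14, 5′ to 3′ along each gene). The windows are chr10:73096867-73097116 on the minus strand, chr5:132227092-132227341 on the minus strand, chr3:146161185-146161434 on the minus strand and chr1:11934467-11934716 on the plus strand, in the order printed.
P4HA1: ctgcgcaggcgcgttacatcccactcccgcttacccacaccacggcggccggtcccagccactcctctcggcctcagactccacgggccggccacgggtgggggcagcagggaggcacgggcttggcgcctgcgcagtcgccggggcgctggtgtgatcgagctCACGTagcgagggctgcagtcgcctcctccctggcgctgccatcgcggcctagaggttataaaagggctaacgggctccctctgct
P4HA2: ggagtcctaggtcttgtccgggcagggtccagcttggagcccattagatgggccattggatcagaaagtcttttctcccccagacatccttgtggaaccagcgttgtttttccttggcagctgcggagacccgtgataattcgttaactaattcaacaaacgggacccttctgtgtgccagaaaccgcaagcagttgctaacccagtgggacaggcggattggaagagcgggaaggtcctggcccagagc
PLOD2: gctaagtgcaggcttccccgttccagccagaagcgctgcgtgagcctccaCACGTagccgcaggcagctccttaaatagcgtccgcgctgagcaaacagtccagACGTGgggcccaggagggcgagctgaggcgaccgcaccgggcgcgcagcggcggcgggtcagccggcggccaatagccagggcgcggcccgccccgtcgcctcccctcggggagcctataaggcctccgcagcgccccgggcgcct
PLOD1: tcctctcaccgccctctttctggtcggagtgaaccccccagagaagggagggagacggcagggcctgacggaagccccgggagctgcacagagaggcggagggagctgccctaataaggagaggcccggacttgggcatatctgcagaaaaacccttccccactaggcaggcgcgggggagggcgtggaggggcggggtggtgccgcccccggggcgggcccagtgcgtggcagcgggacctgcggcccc
The P4HA1 window held 1 match to ACGTG, the PLOD2 window 2, and the windows of P4HA2 and PLOD1 held 0. The form GCGTG, which was not searched, can be read in the printed windows of both PLOD1 and PLOD2. The windows of P4HA2 and PLOD1 thus differ in whether they hold a form of the core. Over all 35116 windows 18.5% held ACGTG, and of the 26 measured members with a window 5 did. Of these 5, P4HA1 and PLOD2 were higher, while COL5A1, COL12A1 and LOX were lower. The motif was chosen after the ratios of P4HA1 and PLOD2 were seen. Higher, level and lower are by counts in this paragraph. By the authors' FPKM PLOD2 was level at 20.1 and 20.2, and P4HA2 was higher at 3.12 and 8.21. PLOD1 was lower by FPKM at 20.0 and 12.1, and COL5A1 higher at 0.19 and 1.64. P4HA1 was higher by FPKM too, and COL12A1 and LOX lower.

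Of the 19 pairs of chains or paralogs listed, 13 had both genes measured. In 7 of these the interval of the difference in log2 ratio included 0, among them COL4A2 with COL4A1, both COL6 pairs, LAMC1 with LAMB2 and AGRN with HSPG2. The largest differences of the 13 were P4HA2 with P4HA1 and PLOD2 with PLOD1, the latter at 0.89 (0.68 to 1.10). The intervals are those of each pair alone.

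The wider matrix, 118 other genes of the same kinds, held 55 measured genes with a median log2 ratio of -0.29. At least 1.5-fold lower were 12 of the 55 (background 10.9%), and at least 1.5-fold higher were 5 (background 11.5%), a share near the background. FN1, the gene of fibronectin, was at 261 and 134 CPM, a ratio of -0.97 (-1.05 to -0.88). Of 20 measured glycoprotein genes 8 were at least 1.5-fold lower and 1 higher. They included FBLN1 (fibulin 1) at -1.51 (-2.28 to -0.69) and MATN3 (matrilin 3) at -1.47 (-2.33 to -0.56), while the TGF-beta induced matrix gene TGFBI was level at 0.04 (-0.19 to 0.27). MFGE8 and LTBP1 had -0.43 (-0.57 to -0.28) and -0.36 (-0.55 to -0.17).

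Among the 5 other collagens measured, the hemidesmosomal collagen gene COL17A1 had 19 and 41 counts and a ratio of -1.56 (-2.38 to -0.69). COL9A2 had -1.21 (-2.06 to -0.28) and COL27A1 -0.86 (-1.20 to -0.51), while COL15A1, with 10 and 129 counts, was higher at 1.02 (0.10 to 2.12). The basement membrane peroxidase gene PXDN was at 197 and 135 CPM, -0.54 (-0.64 to -0.45), and the netrin gene NTN4 at 93.2 and 99.8 CPM, 0.10 (-0.03 to 0.24). LAMA1 had 23 and 124 counts and an interval that included 0. SRGN, the intracellular granule proteoglycan serglycin, was 185 and 297 CPM, a ratio of 0.69 (0.59 to 0.78), and PRG4 was level.

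The 23 other collagen processing genes measured had a median of -0.07. Of these, 0 were at least 1.5-fold lower (background 10.9%) and 2 at least 1.5-fold higher (background 11.5%), a share higher that is near the background. P4HB, the beta subunit that P4HA1 and P4HA2 need, was at 411 and 391 CPM, -0.07 (-0.14 to -0.01). SERPINH1, the collagen chaperone HSP47, was at 184 and 132 CPM, -0.48 (-0.58 to -0.38), and CRTAP, of prolyl 3-hydroxylation, at -0.38 (-0.46 to -0.31). PPIB, the collagen prolyl isomerase, was at 0.16 (0.07 to 0.24). The 2 higher genes were MIA3, which encodes the collagen export factor TANGO1, at 54.31 and 97.95 CPM, 0.85 (0.68 to 1.03), and the prolyl hydroxylase gene P4HA3, with 31 and 319 counts, 0.70 (0.16 to 1.28). The medians of the other glycoproteins (-0.37) and the other collagens (-0.86) lay below that of the processing genes, as among the members themselves.

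**Figure D3:**
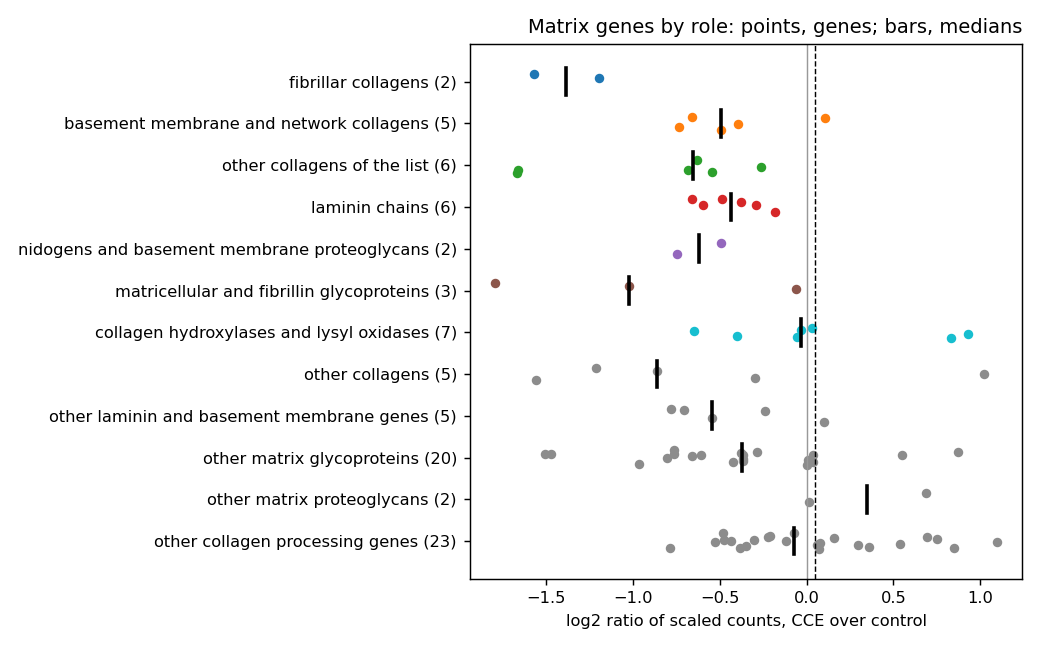
Log2 ratio (CCE over control, scaled counts) for every measured gene of each role, with the number of genes in brackets; coloured points are the listed genes, grey points the other matrix genes, vertical bars the medians, and the dashed line the median of measured protein-coding genes. The enzyme rows centre near 0 (-0.03 and -0.07), and the laminin and most collagen rows lie left of it.

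GC content moved with the ratios across the whole data set. The median log2 ratio of measured protein-coding genes went from 0.17 in the lowest of 10 equal bins of GC to -0.20 in the highest. The measured members had a median GC of 55.2% in their longest transcript, against 47.6% over measured protein-coding genes. Across the 31 members the ratio correlated with GC at a Pearson r of -0.43 and a Spearman rho of -0.43, a description over genes that share both libraries. After the median of each gene's GC bin was subtracted, the members' median was -0.46, with 6 at least 2-fold lower and 0 higher. After the same step 535 of the 11637 measured protein-coding genes were at least 2-fold lower and 315 higher. At 1.5-fold, a threshold combined with the GC step after seeing the data, 11 members were then lower and 2 higher. Of the 11637 genes 1385 were then at least 1.5-fold lower and 1043 higher. COL4A2 (-0.53), COL18A1 (-0.46), LAMA5 (-0.46) and AGRN (-0.55) no longer passed 1.5-fold, and LOX (-0.59) passed it. COL7A1, at 64.8% GC, was then at -1.46, COL13A1, at 50.4%, at -1.74, P4HA1 at 0.77 and PLOD2 at 0.67. Subtracting the trend with transcript length gave a median of -0.60.

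**Figure D4:**
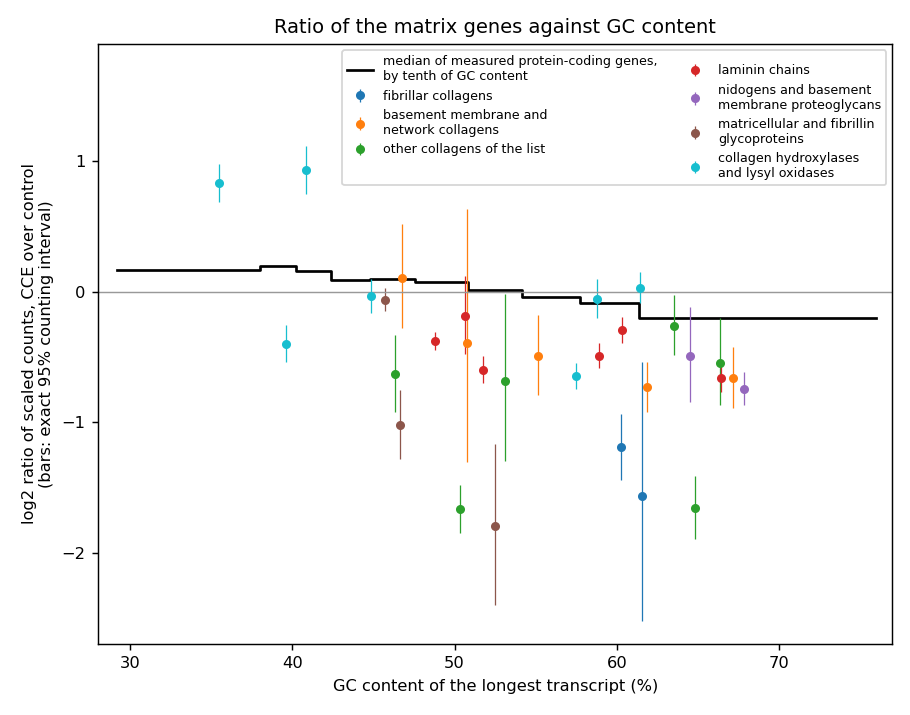
Log2 ratio (CCE over control, scaled counts) against the GC content of the longest transcript for the 31 measured matrix genes, with exact 95% counting intervals; the black steps are the median of measured protein-coding genes in each of 10 bins of GC. The steps go from 0.17 on the left to -0.20 on the right, and most collagens and laminins lie below them.

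Level also went with the ratio. Of the 17 measured members under a mean of 50 CPM, 10 were at least 1.5-fold lower (background 13.2% of protein-coding genes at that level), and of the 14 at or above it 4 were (background 6.78% of protein-coding genes at that level). All 6 members that were at least 2-fold lower lay under 50 CPM. So did most measured protein-coding genes with that call: of 504, 57 were at or above 50 CPM. Of the 14 members at or above 50 CPM, 0 were at least 2-fold lower (background 1.33%), a share near the background. Above 50 CPM the members' median was -0.33, with LAMA5, AGRN, LOXL2 and LAMB1 at least 1.5-fold lower.

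The authors' FPKM values, a second measure of the same libraries in which transcript rows were summed per gene, gave a partly different picture. On the log2(FPKM + 1) scale, which understates ratios of low genes, the members' median was -0.20 against -0.03 for measured protein-coding genes. Counts and FPKM had the same sign for 21 of the 31 members, where 59.7% of measured protein-coding genes did. By FPKM 4 members were at least 2-fold lower (background 14.6%) and 5 at least 2-fold higher (background 14.6%), so that by this measure the share of lower members was near the background. COL13A1 was listed at 3.74 FPKM in control cells and 0.93 in CCE-treated cells, and COL7A1 at 2.85 and 0.43, both lower as by counts. LAMB2 (29.8 and 8.98), LAMB1 (23.9 and 12.3) and LOXL2 (38.6 and 20.7) were lower too, and P4HA1 (6.96 and 24.3) was higher. PLOD2 was level at 20.1 and 20.2.

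Other members went against their counts. COL5A1 was listed at 0.19 and 1.64 FPKM, where 177 and 492 counts gave the opposite direction. COL1A1 was at 0.29 and 0.40, LAMA5 at 2.57 and 3.02, and AGRN at 7.10 and 8.49. P4HA2, level by counts, was listed higher in CCE-treated cells, at 3.12 and 8.21. TNC was listed at 0 in control cells and 0.08 in CCE-treated cells, and COL8A1 and COL4A5 were also listed at 0 in control cells despite 61 and 12 counts (3 of 31 members, background 18%). The files give no depth for FPKM, and what sets these differences was not tested. COL13A1, COL7A1 and P4HA1 are the genes past 1.5-fold by counts and past 2-fold by FPKM on the same side, together with COL18A1 at 4.99 and 0.95 FPKM.

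**Figure D5:**
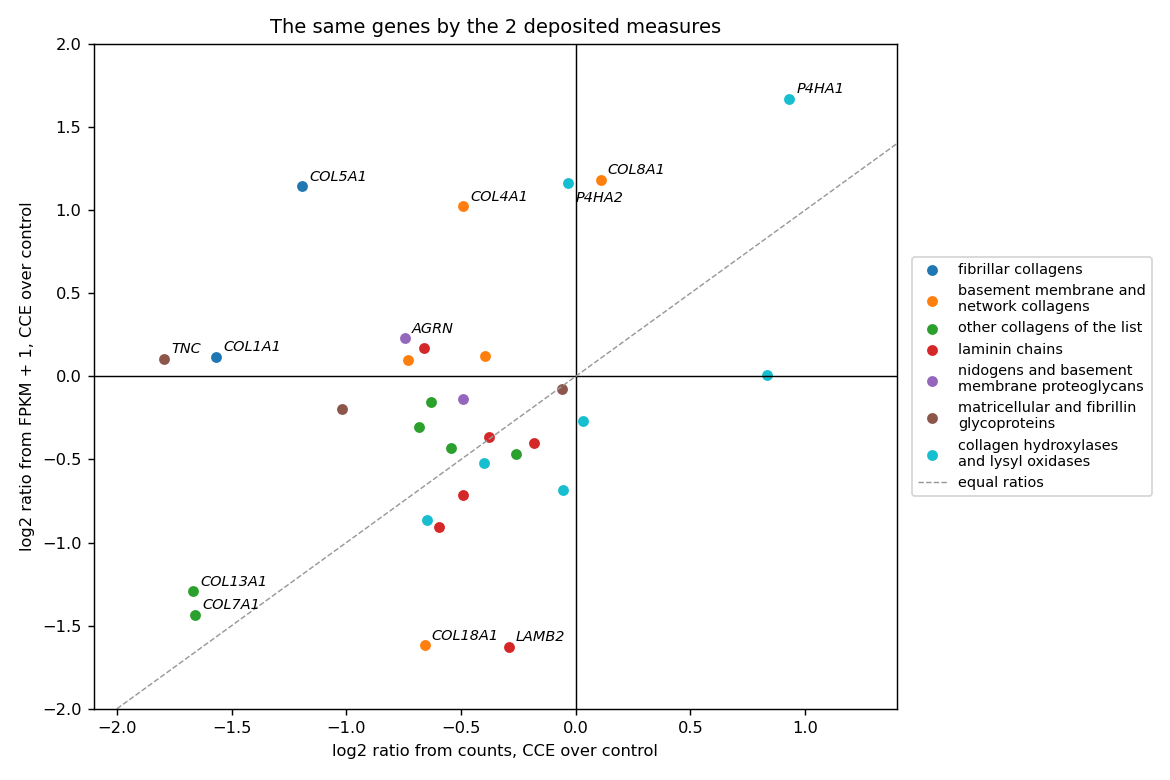
Log2 ratio from counts (horizontal) against log2 ratio from FPKM + 1 (vertical), CCE over control, for the 31 measured matrix genes coloured by role; the dashed line marks equal ratios. COL13A1 and COL7A1 lie low and P4HA1 high on both axes, while COL5A1, COL4A1, TNC and COL1A1 lie left of 0 by counts and above 0 by FPKM.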

How the data were processed

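RNA sequencing of 2 MDA-MB-231 libraries, 1 control and 1 CCE, was analysed. The authors deposited raw counts per Ensembl gene and FPKM values per transcript row (215170 rows per library), per the file headers and values. The tool HISAT2 and the builds hg19 and GRCh37 stand in the labels, per the submitters' processing notes, with no role given. The counter, strand setting and annotation were not given in the sources used here. Antisense reads may therefore be counted. The 5 rows that name no gene (62.9% and 66.8% of records) were left out.

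GENCODE release 44 on GRCh37 matched 55665 IDs and 185 of 186 list symbols. TMM factors (0.987 control, 1.01 CCE) came from edgeR 4.0.16 in R 4.3.3. Exact intervals used scipy 1.17.1, also for pair differences (conditional odds ratio). At equal levels, 100 control counts gave 0.809- to 1.25-fold. Reads copied by PCR are not independent, so intervals cover counting error only. The ratio step was tested on simulated Poisson counts. RefSeq promoters matched 34 of 44 members. Members, gene lists, pairs and rules were chosen with earlier results of these data known. Every member could be named; of each group of other matrix genes, the up to 4 most abundant and up to 2 with the largest ratio were. Alternatives were 3 other scalings including DESeq2 1.42.0, FPKM, other filters and thresholds, genes without exon overlap, and GC and length trends.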

Additional observations from a re-analysis of the deposited data

How the results depend on the processing

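No paired analysis was possible because each group has 1 library, and for the same reason none could be left out. Under total-count, upper-quartile and DESeq2 scaling the members' median stayed between -0.53 and -0.45 and 5, 6 and 6 members were at least 2-fold lower. Of the 11637 measured protein-coding genes 457, 554 and 512 were. The FPKM median was -0.20 (pseudocount 1) and -0.35 (pseudocount 0.1), with 5 members at least 2-fold higher under each. Of the 11637 genes 1699 and 2481 were, so the members' share higher was not above the background in a marked way. At a 1.5-fold threshold 14 members were lower and 2 higher, and 11 and 2 with the GC trend also removed, a combination chosen after seeing the data. Over the 13 measured members with no exon overlap 2 were at least 2-fold lower.

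Measured protein-coding genes at least 2-fold lower and higher numbered 504 and 379. They numbered 1264 and 1334 at 1.5-fold, 1385 and 1043 at 1.5-fold with the GC trend removed, 1702 and 1699 by FPKM with pseudocount 1, 2201 and 2481 with pseudocount 0.1, 286 and 217 with the 5 CPM minimum, and 255 and 168 without exon overlap.

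By FPKM 7 members with an interval below 0 had ratios above 0. With pseudocounts 1 and 0.1 these were 0.23 and 0.25 for AGRN, 0.12 and 0.36 for COL1A1, 1.02 and 2.10 for COL4A1, 0.10 and 0.12 for COL4A2, 1.14 and 2.56 for COL5A1, 0.17 and 0.22 for LAMA5, and 0.11 and 0.82 for TNC. The cause was not tested. No other setting gave a member whose interval excluded 0 the opposite sign. The control library, with fewer counts, limits the precision of COL1A1, TNC and COL6A3.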
